A study of Mus musculus with 6 samples.

Results

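*Gkn2*, *Capn9*, *Sytl2* and *Cib3* were the 4 most lowered genes in 1G11-SOD3 against 1G11-mock cells, and they are described here probe by probe and array by array. 1G11 is a mouse microvascular endothelial line from C57BL/6NCrLBR mice. Cells of the line carrying a mock construct (1G11-mock) or overexpressing SOD3, the extracellular superoxide dismutase (1G11-SOD3), were both given cell-free medium from cultures of the mouse mammary cancer line N202.1A for 6 h. RNA of 3 biological replicates per line was hybridized to 1-color Agilent mouse arrays, 6 arrays in all, and each line is a single cell line, so that the replicates do not cover differences between independently made lines. The arrays of one line lay in one row of the slide and those of the other line in the other row, and cell line and slide row cannot be told apart. The members were found as the non-control spots whose annotation names one of the 4 genes, which gave 5 of 55681 probes and 14 of 59305 spots, for 4 of 36731 genes. Because the genes were chosen by this very difference, their values are given as a description and carry no test.

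Gastrokine 2, encoded by *Gkn2*, is a secreted protein of the mucous cells that line the stomach, has a BRICHOS domain and binds trefoil factor 1. Calpain 9 is a calcium-dependent cysteine protease known mainly from the digestive tract, where it works together with calpain 8. *Sytl2* encodes synaptotagmin-like protein 2, which binds the small GTPase Rab27 on secretory vesicles and, through its C2 domains, the plasma membrane. *Cib3* encodes a member of the calcium- and integrin-binding family of EF-hand proteins and is known as a partner of the TMC channels of inner ear hair cells. All 4 are better known from epithelia and sensory cells than from endothelium.

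The array reads each gene through a probe of 60 bases, and the sequences are shown because each value below is the hybridization signal of exactly this stretch. They are taken from the deposited scanner output and written in lower case throughout, since no part of a probe is set apart from the rest.
*Gkn2*: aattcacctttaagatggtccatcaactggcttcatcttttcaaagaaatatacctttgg
*Capn9*, brighter probe: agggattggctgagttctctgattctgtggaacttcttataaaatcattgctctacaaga
*Capn9*, dimmer probe: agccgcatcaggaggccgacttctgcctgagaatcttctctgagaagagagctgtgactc
*Sytl2*: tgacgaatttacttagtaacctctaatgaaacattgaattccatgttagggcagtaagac
*Cib3*: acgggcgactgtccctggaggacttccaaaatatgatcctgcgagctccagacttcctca

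By the array annotation, whose build is not given in the sources used here, the *Gkn2* probe lies at chr6:87329285-87329344 on the plus strand. The *Capn9* probes lie at chr8:127142567-127142626 (brighter) and chr8:127129744-127129803 (dimmer) on the plus strand, with their starts 12.8 kb apart. The *Sytl2* probe lies at chr7:97558507-97558566 on the plus strand and the *Cib3* probe at chr8:74729463-74729522 on the minus strand. *Capn9* and *Cib3* thus share a chromosome without being neighbors. The probes also differ in base composition, with a GC content of 35% for *Gkn2* and *Sytl2*, 38.3% for the brighter *Capn9* probe and 55% for *Cib3* and the dimmer *Capn9* probe. The members' probes thus covered AT-rich and GC-rich sequence.

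Values below are log2 intensities after background correction and quantile normalization, and a difference is the 1G11-SOD3 mean minus the 1G11-mock mean on that scale. *Gkn2* read 14.68, 14.71 and 14.89 on the arrays of 1G11-mock replicates 1 to 3, and 10.42, 10.38 and 9.93 on those of 1G11-SOD3 replicates 1 to 3. The lowest 1G11-mock array was 4.26 above the highest 1G11-SOD3 array. The means were 14.76 ± 0.11 and 10.25 ± 0.27 (SD, n = 3 each), a difference of -4.51, or 22.8-fold lower. *Gkn2* had the tightest 1G11-mock values of the 4 genes, but each is a mean of 10 spots. The other member probes have 1 spot each, so these spreads are not alike.

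The brighter *Capn9* probe read 15.05, 14.77 and 14.31 on the 1G11-mock arrays and 10.61, 10.72 and 9.64 on the 1G11-SOD3 arrays. The means were 14.71 ± 0.37 and 10.32 ± 0.59 (SD, n = 3 each), a difference of -4.39, or 20.9-fold lower, and the lines were 3.59 apart at their nearest arrays. The dimmer *Capn9* probe, at another place in the gene, read 10.74, 11.58 and 11.48 on the 1G11-mock arrays and 8.30, 8.39 and 8.03 on the 1G11-SOD3 arrays. Both probes separated the lines without overlap. The second gave a smaller difference of -3.03, or 8.18-fold lower (11.27 ± 0.46 and 8.24 ± 0.19, SD, n = 3 each), so that the calpain gene was lower by both readings but not by the same amount.

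*Sytl2* read 12.24, 12.42 and 13.04 on the 1G11-mock arrays and 7.99, 8.40 and 8.23 on the 1G11-SOD3 arrays. The means were 12.57 ± 0.42 and 8.21 ± 0.21 (SD, n = 3 each), a difference of -4.36, or 20.6-fold lower, with 3.84 between the nearest arrays of the lines. The annotation gives 4 transcript variants for this probe, which do not have separate values.

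*Cib3* read 14.21, 13.71 and 13.31 on the 1G11-mock arrays and 9.91, 9.78 and 8.71 on the 1G11-SOD3 arrays. *Cib3* thus differed by -4.28, or 19.4-fold lower, and the nearest arrays of the lines were 3.40 apart. Among the single or brighter probes of the 4 genes, *Cib3* had the widest spread in both lines (SD of 0.45 and 0.66, n = 3 each), and even so no array of one line came near the other line. The plot of the member probes on each array shows the same gap for all 5 probes.

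**Figure D1:**
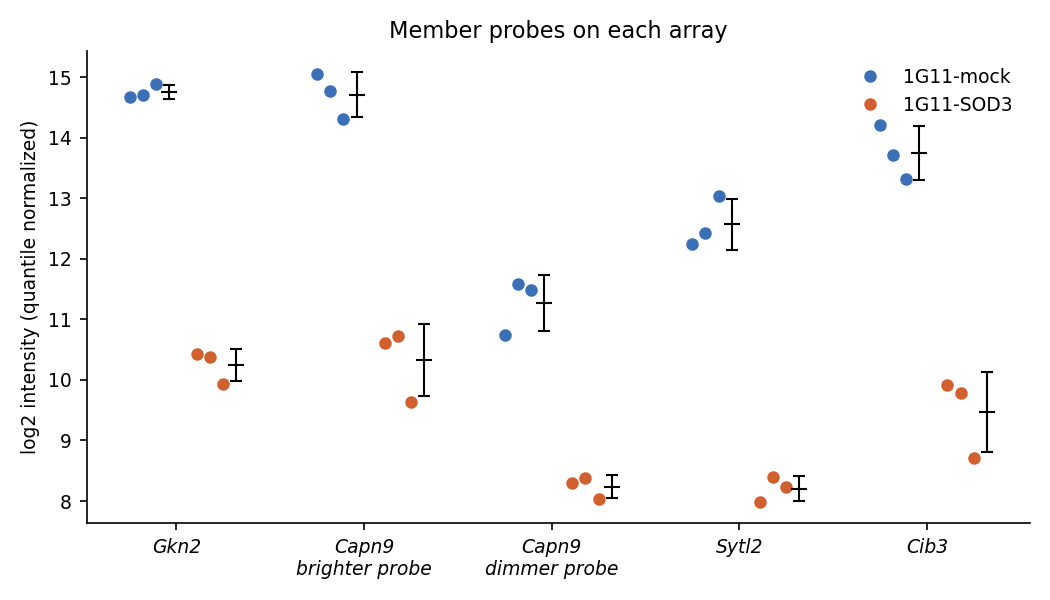
Quantile-normalized log2 intensity of the 5 member probes (vertical axis) on the 3 1G11-mock (blue) and 3 1G11-SOD3 (orange) arrays, with points as arrays in the order of replicates 1 to 3 and black marks as mean and SD. The lines do not overlap at any probe, and the narrowest gap, 2.36, is that of the dimmer *Capn9* probe.

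The gene just below these 4 in the order of decrease was *Cdkn2a*, which encodes the cell cycle inhibitor p16INK4a and the p53 regulator ARF. It went from 13.07 to 9.05, a difference of -4.03, next to -4.28 for *Cib3*, the last gene inside the group. The step at the edge of the group was thus smaller than the SD of the *Cib3* values, and the group has no sharp lower edge.

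None of the 4 genes was lost from view in 1G11-SOD3 cells. All 14 spots were well above background by the scanner software on all 6 arrays, a state reached by 13133 of 36731 genes (35.8%), and no spot was saturated. In the scanner's own units before any correction, the *Gkn2* spots had a median intensity of 22450 in 1G11-mock and 1665 in 1G11-SOD3 cells, or 274 and 19.5 times the local background. *Capn9* went from 251 to 19.9 times background at its brighter probe and from 29.7 to 5.16 times at its dimmer probe. The ratio went from 60.4 to 5.14 for *Sytl2* and from 130 to 11.2 for *Cib3*. The signals remaining in 1G11-SOD3 cells were therefore measured levels and not bounds, and they were nearest to background for *Sytl2* and the dimmer *Capn9* probe. For every member probe the uncorrected medians of the lines lay fewer fold apart than the values above, which were taken after background correction and quantile normalization. No alternative run left out scaling between arrays.

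*Gkn2* is printed at 10 scattered places on each array, so that its decrease could be read 10 times on the same RNA. On the 1G11-mock arrays the lowest copies read 14.41, 14.32 and 14.42 (replicates 1 to 3), and the highest of all copies 15.27. On the 1G11-SOD3 arrays they ran from 9.28 to 10.82, from 9.89 to 10.77 and from 9.44 to 10.07. No copy on any 1G11-SOD3 array reached any copy on a 1G11-mock array. The difference of a single copy lay between -4.94 (row 48, column 8) and -4.01 (row 251, column 111), and within each copy the lines were 3.67 to 4.53 apart at their nearest arrays. The copies share the RNA and the array, so they measure the error of reading a spot and are not replicates of a line.

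**Figure D2:**
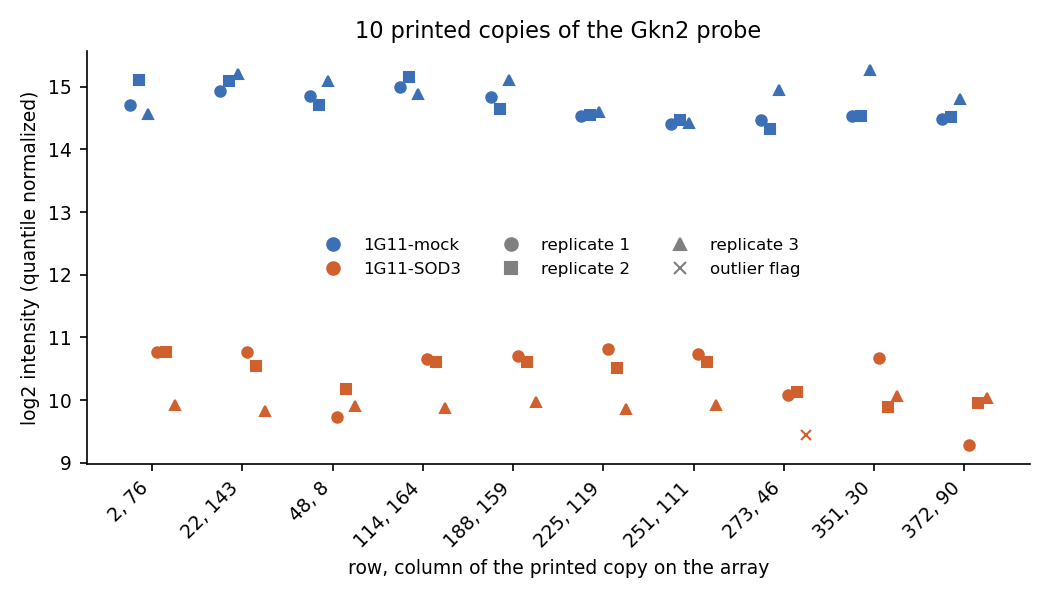
Quantile-normalized log2 intensity (vertical axis) of each of the 10 printed copies of the *Gkn2* probe (horizontal axis, by row and column on the array), with 1 symbol per array in blue for 1G11-mock and orange for 1G11-SOD3 and a cross for the spot with an outlier flag. Copies of the probe lie between 14.32 and 15.27 in 1G11-mock and between 9.28 and 10.82 in 1G11-SOD3 cells.

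The spread among the *Gkn2* copies was largest on 1G11-SOD3 replicate 1, with an SD of 0.535 against a median of 0.336 over the probes printed 10 times on that array with a mean above 9. On 1G11-mock replicate 3 it was 0.290, below the median of 0.575. On 1G11-SOD3 replicate 3 a single copy (row 273, column 46) carried an outlier flag and was left out, so that 9 copies entered that array's value.

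Place on the array touched these values little. These arrays carry an uneven signal across their surface. All of the 14 spots are outside the middle part of the array (rows 129 to 256, columns 55 to 109), which does not by itself free them of an effect of place. With a smooth surface over row and column taken off each array, the differences were -4.40 for *Gkn2*, -4.05 and -2.68 for the brighter and dimmer *Capn9* probes, -4.06 for *Sytl2* and -3.92 for *Cib3*. All were slightly smaller than without the adjustment, and the copies of *Gkn2* drew together to between -4.56 and -4.22. The copies close to the middle part, at row 251, column 111 and row 225, column 119, became larger. They went from -4.01 to -4.22 and from -4.16 to -4.27.

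*Sod3* itself, the gene overexpressed in 1G11-SOD3 cells, went from 12.04 ± 1.95 to 16.31 ± 0.06 (SD, n = 3 each; difference 4.27, limma adjusted p = 0.00786). Unlike those of the members its spot is in that middle region, and with the surface taken off the difference was 2.72.

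Within a line the 4 genes did not all vary together from array to array. The brighter *Capn9* probe deviated from its line mean by 0.34, 0.06 and -0.40 on the 1G11-mock arrays and by 0.29, 0.40 and -0.68 on the 1G11-SOD3 arrays. *Cib3* followed the same course, with 0.46, -0.03 and -0.43 and then 0.45, 0.32 and -0.76. The dimmer *Capn9* probe ran differently in 1G11-mock cells, with -0.53, 0.31 and 0.21, and then 0.06, 0.15 and -0.21. So the course shared with *Cib3* was that of the brighter *Capn9* probe, and in 1G11-mock cells the other probe of the gene did not follow it. *Sytl2* deviated by -0.33, -0.14 and 0.47 and then by -0.22, 0.20 and 0.02. *Gkn2* deviated by -0.08, -0.05 and 0.13 and then by 0.18, 0.14 and -0.31. In 1G11-mock cells *Gkn2*, the only member averaged over several spots, moved least, and *Sytl2* ran against *Cib3*. In 1G11-SOD3 cells *Gkn2* had the signs of *Cib3*.

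Likeness over the 6 arrays was measured as the root mean square difference between the log2 values of 2 genes, each centered on its own mean, among 13419 genes well above background on all 1G11-mock arrays. The nearest gene to *Capn9*, read by its brighter probe, was *Cib3* at 0.116, which was also the smallest distance between any pair of the 4, and the next were *Gkn2* at 0.342 and *Cdkn2a* at 0.367. The *Capn9* and *Cib3* spots are printed 12 rows and 4 columns apart, and with the surface taken off the distance was 0.144. For *Gkn2* the nearest were *Sytl2* (0.285), *Capn9* (0.342) and *Cdkn2a* (0.403). For *Sytl2* they were a transcript without a gene name (0.254), *Gkn2* (0.285) and *Cdkn2a* (0.509). *Sytl2* and *Cib3* were the least alike pair (0.649). Because genes chosen for similar large decreases must be alike in this measure, the distances describe the arrays and carry no test.

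The 4 were chosen as the most lowered of all genes, so no other gene of their families could show as large a decrease. The other family genes are therefore given by their own values, as far as their probes were read. The families comprised 46 genes besides the members, of which 17 were well above background on all arrays of at least 1 line. A gene was called at more than 2-fold and a limma adjusted p under 0.05. Lower in 1G11-SOD3 cells by that rule were 3 of the 46 (6.52%), *Rab27a*, *Itm2b* and *Tff1*, where 469 of all 36731 genes (1.28%) were called lower. None of the 46 was called higher, against 786 of all genes (2.14%), and at an unadjusted p under 0.05 there were 2 higher and 10 lower, where 7.8% of all genes were higher and 7.99% lower. The families' calls depended on the surface, since with it taken off none of the 3 was called and 4 others were (*Rab27b*, *Sytl4*, *Sytl3* and *Capn15*). Of these 4, *Sytl3* (-0.22 before and -1.33 after) and *Capn15* (0.54 before and -1.43 after) were not well above background on all arrays of either line. After the surface was taken off, 1091 of all genes were called lower and 506 higher, and with 75th percentile scaling 741 and 1165. The lines did not overlap, with 1G11-SOD3 lower, for 13 of the 46, where 11.1% of all genes had this order. With 1G11-SOD3 higher they did not overlap for 3 of the 46, where the share of all genes was 10.6%. The median difference of the 46 was -0.17 against -0.04 over all genes.

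**Figure D3:**
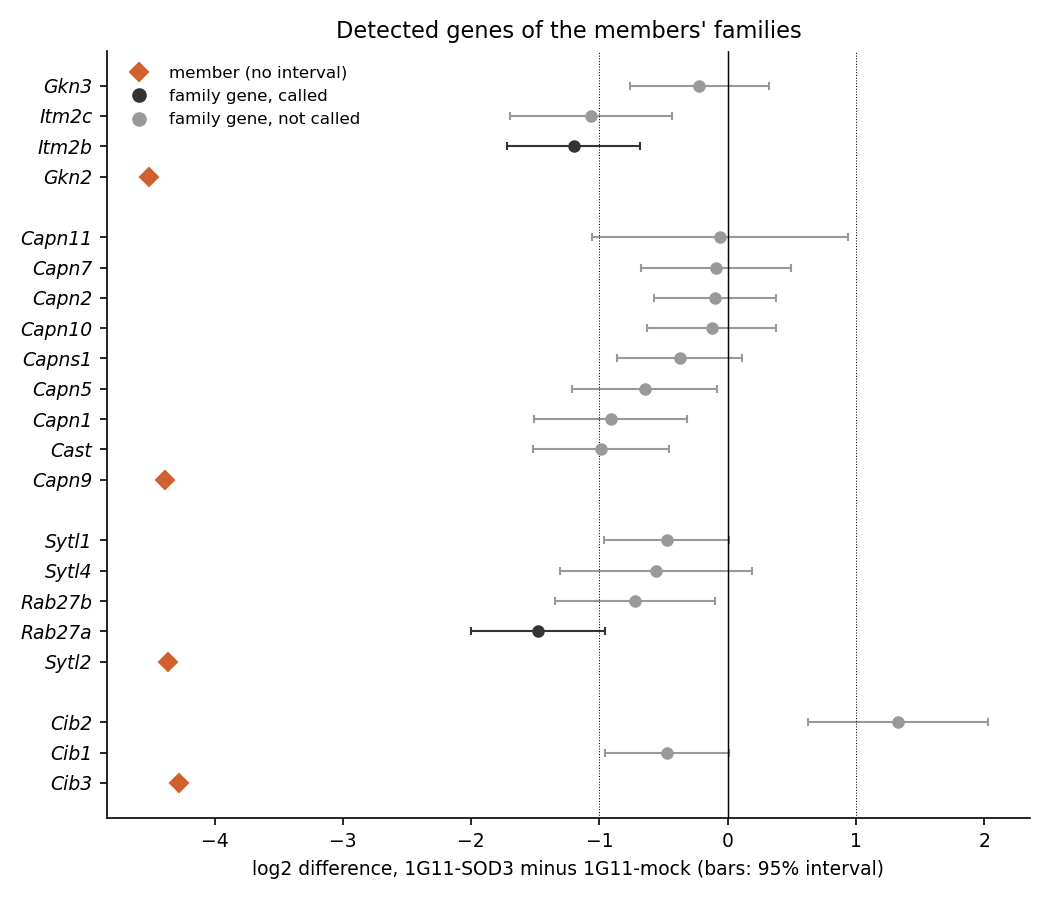
Difference in log2 intensity (horizontal axis, 1G11-SOD3 minus 1G11-mock) of the members (orange diamonds, no interval) and of the 17 other family genes well above background on all arrays of a line, with bars as 95% intervals from limma and dotted lines at 2-fold. Each gene is read by its brightest probe. The members lie beyond -4.2, and the lowest other gene by that reading, *Rab27a*, is at -1.48. The dimmer *Rab27b* probe (-1.82) is not drawn.

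Among the gastrokines and other BRICHOS proteins, *Gkn3* was the only gastrokine besides *Gkn2* that was well above background on all arrays of a line. It read 8.555, 8.843 and 9.004 on the 1G11-mock arrays and 8.66, 8.22 and 8.86 on the 1G11-SOD3 arrays, which overlap. Its difference was -0.22 (adjusted p = 0.748, 95% interval up to 0.32). *Gkn1* did not reach that level on any of the 6 arrays.

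*Itm2b*, which encodes a widely expressed BRICHOS membrane protein, read 15.38, 15.62 and 16.01 on the 1G11-mock arrays and 14.49, 14.39 and 14.53 on the 1G11-SOD3 arrays. It was lower by 1.20 on the log2 scale in 1G11-SOD3 cells (difference -1.20, SE 0.235, adjusted p = 0.0191), with no overlap. The call was lost without 1G11-mock replicate 2 or 3 or without any 1G11-SOD3 array (adjusted p from 0.0519 to 0.0763) and after the surface was taken off (-0.999, just short of 2-fold). *Itm2c*, of the same subfamily, had a difference of -1.07 (adjusted p = 0.0815) and was called with the replicate number as a block (adjusted p = 0.0223).

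*Tff1*, the trefoil peptide that gastrokine 2 binds, was called at -1.05 (adjusted p = 0.0423) from a probe well above background on 1 1G11-mock array and on no 1G11-SOD3 array. Its second probe, not well above background on any array, gave 0.32 (adjusted p = 0.667), and without 1G11-mock replicate 2 or 3 or any 1G11-SOD3 array the first was not called (adjusted p from 0.108 to 0.141). Nor was it called with the surface taken off (-0.74, adjusted p = 0.118), with no background correction (-0.65, adjusted p = 0.0801), with cyclic loess (-0.998) or with the mean of its probes (-0.37, adjusted p = 0.401). *Tff1* was thus read close to background and by disagreeing probes.

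None of the 15 other genes of the calpain system was called by limma with the processing reported here. Calls appeared for *Capn15*, which is on no array well above background, with the surface taken off (-1.43, adjusted p = 0.0233), for *Capn1* without 1G11-mock replicate 1, and for *Capn5* and *Capn6* with the processed signal. *Capn8*, the digestive tract partner of calpain 9, was not well above background on any array. The ubiquitous calpains *Capn1* and *Capn2* differed by -0.91 (adjusted p = 0.116) and -0.10. Their small subunit *Capns1* differed by -0.38 at its brighter probe and by 0.71 at its dimmer probe. *Cast*, which encodes the calpain inhibitor calpastatin, differed by -0.99 (adjusted p = 0.0530). *Capn5* differed by -0.65 (adjusted p = 0.270) at its brighter probe. Its dimmer probe gave 1.19 (adjusted p = 0.156) and was well above background on 1 1G11-mock array and 3 1G11-SOD3 arrays. *Capn7*, *Capn10* and *Capn11* differed by -0.09, -0.13 and -0.06. The decrease of *Capn9* was larger than that of every calpain gene that could be read, without a test of that difference, since *Capn9* was chosen for its size.

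*Rab27a*, the GTPase to which *Sytl2* binds, was lower in 1G11-SOD3 cells. It read 10.77, 11.20 and 10.77 on the 1G11-mock arrays and 9.29, 9.32 and 9.69 on the 1G11-SOD3 arrays, with no overlap. The means were 10.91 ± 0.25 and 9.43 ± 0.22 (SD, n = 3 each), a difference of -1.48 (SE 0.236, adjusted p = 0.00670). The call held without any 1 array and was lost with the surface taken off (-0.85, adjusted p = 0.0677). Its paralog *Rab27b* had a difference of -0.72 (adjusted p = 0.263) at the brighter of its probes and of -1.82 (adjusted p = 0.00256) at the other, both well above background on all arrays. With the surface taken off, the brighter *Rab27b* probe was called too (-1.15, adjusted p = 0.0248). *Sytl1* and *Sytl4*, which encode related Rab27 effectors, differed by -0.48 (adjusted p = 0.363) and -0.56 (adjusted p = 0.506). The dimmer *Sytl1* probe gave 0.24. *Sytl4* was called with the surface taken off (-1.01, adjusted p = 0.0492). *Sytl3* and *Sytl5* were not well above background on all arrays of either line.

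In the CIB family, *Cib2* had a difference in the other direction from *Cib3*. It read 10.46, 10.32 and 10.45 on the 1G11-mock arrays and 12.39, 11.83 and 10.98 on the 1G11-SOD3 arrays, all of them higher. The difference of 1.32 missed the threshold (SE 0.320, adjusted p = 0.0506), and it passed with the replicate number as a block (adjusted p = 0.0236), which raised the count of family genes called higher from 0 to 1. With 1 array left out, *Cib2* passed only without 1G11-SOD3 replicate 3 (adjusted p = 0.0211), and otherwise the adjusted p ran from 0.0960 to 0.183. Without 1G11-SOD3 replicate 1 the difference was 0.998. *Cib2* was not called with the surface taken off (1.35, adjusted p = 0.0712). *Cib1*, the most widely expressed of the family, differed by -0.47 (adjusted p = 0.359). The TMC channel genes *Tmc1* and *Tmc2* were not well above background on all arrays of either line.

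The chromosomal neighbors of the 4 genes were examined next, taking the 5 nearest named genes on each side by the array's probe positions. None of these 40 genes was called by limma in either direction, at an unadjusted p under 0.05 there were 3 higher and 7 lower (7.8% and 7.99% of all genes), and 25 of the 40 were well above background on all arrays of a line. Their differences ran from -1.24 (*Picalm*, adjusted p = 0.163) to 0.77 (*Prokr1*, well above background on no array), with a median of -0.20. For 7 of them the lines did not overlap, with 1G11-SOD3 lower (11.1% of all genes). With 1G11-SOD3 higher they did not overlap for *Nfu1*, *Prokr1*, *Urb2*, *Arv1* and *Ccdc89*, where the share of all genes was 10.6%.

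The genes nearest to each member are given in turn. *Gkn3* lies 4.09 kb from *Gkn2* and had the difference of -0.22 given above, and *Gkn1* lies 33.6 kb away on the other side. Around *Capn9*, *2310022B05Rik* at 17.4 kb differed by -0.92 (adjusted p = 0.295) and *Agt* at 59.4 kb by -0.63 (adjusted p = 0.235). Beside *Sytl2*, *Ccdc89* at 17.7 kb differed by 0.67 (adjusted p = 0.283) and *Ccdc83* at 173 kb by -0.21. Beside *Cib3*, *Hsh2d* at 4.68 kb differed by -0.33 (adjusted p = 0.589) and *Fam32a* at 16.8 kb by -0.19 (adjusted p = 0.825). Of these genes, *Gkn1*, *Agt*, *Ccdc89*, *Ccdc83* and *Hsh2d* were not well above background on all arrays of either line. A large decrease could not have been read for them. Because of how the members were chosen, no neighbor could show as large a decrease as theirs.

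With the replicate number as a block, 2 neighbors of *Cib3* were called lower. They were *Rab8a*, which encodes a small GTPase of vesicle transport (-1.01, adjusted p = 0.0302 against 0.0503 without the block), and *Tpm4*, which encodes a tropomyosin (-1.05, adjusted p = 0.0312 against 0.0804). *Rab8a* was -0.39 (adjusted p = 0.471) with the surface taken off, and its direction turned to 0.42 with the mean of its probes.

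**Figure D4:**
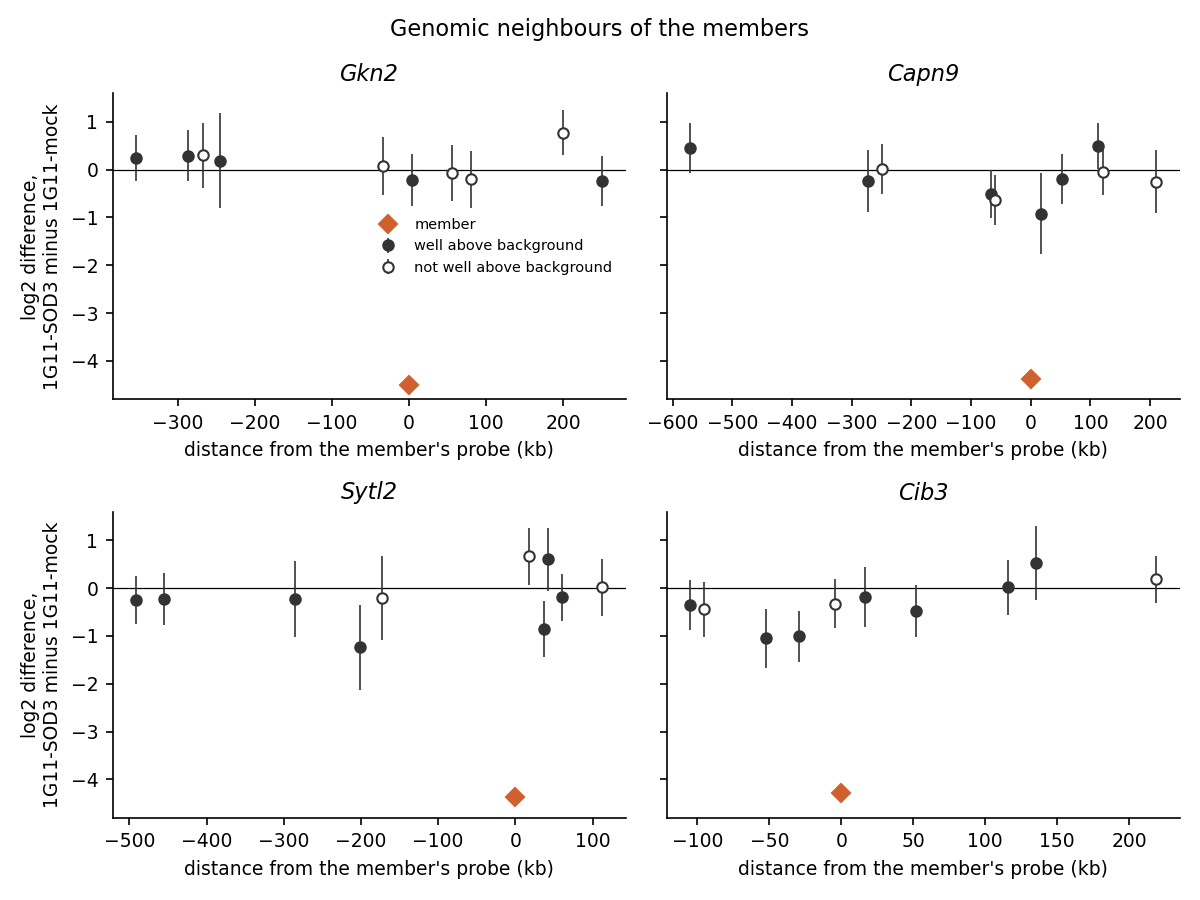
Difference in log2 intensity (vertical axis, 1G11-SOD3 minus 1G11-mock, bars as 95% intervals from limma) of the 10 neighbors of each member against the distance in kb from the member's probe (horizontal axis), with filled circles for genes well above background on all arrays of a line. The members (orange diamonds, at distance 0) lie below -4.2 and their neighbors between -1.24 and 0.77.

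Promoter sequence from RefSeq (GRCm38.p6) was read for *Gkn2* and *Capn9*. *Sytl2* had no entry, and the *Cib3* entry was not used because its window appears to hold transcribed sequence of the gene. The 250 bases before the gene start were searched on both strands for 3 short motifs. The motifs were an NF-κB-like site, GGG and TTCC with any 3 bases between them, an AP-1 site, TGANTCA, and the TATA box letters TATAAA. Over 32851 promoters of the same length, 4.65% held the first, 6.75% the second and 12.4% the third. *Gkn2* held 1 TATAAA, which starts 29 bases before the gene start, and neither of the other motifs, and *Capn9* held none of the 3. The *Gkn2* window, at chr6:87373115-87373364 on the plus strand, cannot be set against the probe positions above, whose build is not given. It is shown because it held a match, in capitals.
*Gkn2*, upstream: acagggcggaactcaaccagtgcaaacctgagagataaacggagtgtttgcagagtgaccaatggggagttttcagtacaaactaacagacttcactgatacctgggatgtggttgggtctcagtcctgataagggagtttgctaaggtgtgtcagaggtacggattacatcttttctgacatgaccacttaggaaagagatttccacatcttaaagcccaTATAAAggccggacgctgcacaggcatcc

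The labeled cell type was checked against markers. Of 16 endothelial markers, 8 were well above background on all arrays of at least 1 line, *Kdr*, *Eng* and *Esam* among them on all 6 arrays. The endothelial genes *Cdh5*, *Tek*, *Tie1*, *Erg*, *Emcn* and *Robo4* did not rise well above background on any of the 6 arrays, and *Pecam1* did so on 2 of 3 arrays of each line. *Vwf* was called lower (-1.65, adjusted p = 0.00342), and *Ecscr* (3.004, adjusted p = 0.0323) and *Egfl7* (1.82, adjusted p = 0.0175) were called higher. With the surface taken off, *Ecscr* (0.99) and *Egfl7* (0.96) were not called (adjusted p = 0.228 and 0.0808). In 1G11-mock cells *Ecscr* reached a level well above background on a single array. With the replicate number as a block *Flt1* (1.07, adjusted p = 0.0237 against 0.219) and *Esam* (1.22, adjusted p = 0.0464 against 0.188) were called higher too, and with the surface taken off they were 0.19 and -0.35, neither called.

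Since the members are known from epithelia, markers of epithelium and of the stomach were read beside them. Of 15 epithelial markers, 4 were well above background on all arrays of a line and none was called in either direction by limma. Of those detected, the keratin gene *Krt19* went from 16.48 to 15.96 (-0.52, adjusted p = 0.480) and *Grhl2* differed by -0.25. In the other direction, *Cdh1* differed by 0.30 and *Esrp2* by 0.66 (adjusted p = 0.206). *Epcam* was not well above background on any array.

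Of 15 gastric markers with a probe, 10 were well above background on none of the 6 arrays, and 2 were called lower (13.3%, against 1.28% of all genes), *Tff1*, given above, and *Muc5ac*. *Muc5ac* encodes the secreted mucin of the stomach surface and of airways. It read 9.94, 9.74 and 10.32 on the 1G11-mock arrays and 7.503, 7.967 and 8.001 on the 1G11-SOD3 arrays, with no overlap. Its difference was -2.18 (adjusted p = 0.00107), and it was well above background on 3 1G11-mock arrays and 1 1G11-SOD3 array. The call held under every alternative run (adjusted p up to 0.00925), while the difference ran from -3.24 with the processed signal to -1.66 with no background correction. The gastric set changed with the surface taken off, when *Tff1* was not called. *Psca* (-1.35, adjusted p = 0.0197) and *Anxa10* (-1.98, adjusted p = 0.00857) were then called lower, against -0.55 and -0.20 without the adjustment. *Anxa10* was well above background on no array. The part of any other cell type in the differences of the 4 genes was not tested.

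All 4 genes were lower under every processing run, and the size of the decrease moved more for *Sytl2* and *Capn9* than for *Gkn2* and *Cib3*. Over the alternatives with all arrays, the difference ran from -4.55 to -4.34 for *Gkn2*, from -4.43 to -3.71 for *Capn9* (the latter with the mean of its probes), from -5.33 to -3.82 for *Sytl2* and from -4.38 to -3.92 for *Cib3*. With 1 array left out it ran from -4.60 to -4.36, from -4.59 to -4.05, from -4.53 to -4.13 and from -4.50 to -3.90 in the same order. *Sytl2*, whose 1G11-SOD3 signal was among the nearest to background, moved most, to its ends of that range with no background correction (-3.82) and with the scanner software's processed signal (-5.33).

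**Figure D5:**
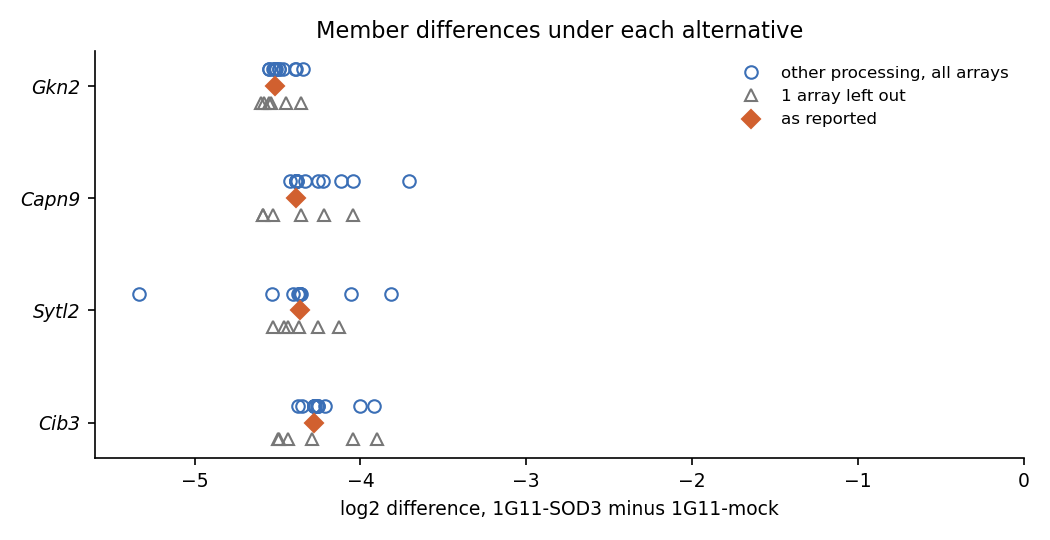
Difference in log2 intensity (horizontal axis, 1G11-SOD3 minus 1G11-mock) of the 4 members as reported (orange diamonds), under other processing of all arrays (blue circles) and with 1 array left out (gray triangles). All values lie between -5.33 and -3.71.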

How the data were processed

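For each array the authors deposited Agilent Feature Extraction output with the mean and median intensity of each spot, its local background and detection flags, with no scaling between arrays. A second deposited file holds log2 values, which the authors had background corrected and quantile normalized, with a median of 7.57 or 7.58 per array over non-control spots, which was recomputed from median intensities to within 0.00500. Here mean intensities were corrected with normexp (offset 50), taken to log2 and quantile normalized after control spots were removed. Spots with outlier flags were left out and the spots of a probe averaged. A gene was represented by its brightest probe over the 6 arrays, and a probe counted as well above background where at least as many of its spots carried that flag as did not. The lines were compared with limma 3.58.1 in R 4.3.3 over 55681 probes, with Benjamini-Hochberg adjustment. Of 36731 genes, 20953 were named by accession, 1520 by description, and 14258 had no gene name. Between 34.2% and 43.8% of spots per array were well above background and none was saturated, and 3 arrays per line limit the precision.

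Deviations of same-numbered arrays of the lines were weakly correlated (0.165, 0.103 and 0.157 over probes), and those of arrays with unlike numbers ran from -0.168 to 0.0553. The pairing comes from the data and the replicate numbers alone, so a fit with the number as a block is given where it changed a call. The place surface was a Gaussian smooth (SD of 12 rows and 6 columns) fitted without the probes printed 10 times. It lowered the SD of the line difference among copies of a probe from 0.541 to 0.170. Named genes were the members, family genes called or well above background, nearest and called neighbors, the 5 called markers with the largest change, the first gene below the members and the 3 genes most like each member. *Picalm*, *Prokr1*, *Nfu1*, *Urb2*, *Arv1*, *Krt19*, *Flt1*, *Esam*, the other markers not called and the genes called under an alternative alone were named after their values were seen. The members and lists were chosen with earlier results of these data known. Alternatives were other background corrections, intensities, scalings and variance models, the block, the surface, control, outlier or dim spots kept or left out, the deposited table, the mean of a gene's probes, and each array left out in turn. Figures were drawn with matplotlib 3.10.9.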

Additional observations from a re-analysis of the deposited data

How the results depend on the processing

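All alternatives kept the direction of *Gkn2*, *Capn9*, *Sytl2* and *Cib3*. *Capn9* was -3.71 with the mean of its probes, and *Sytl2* was -3.82 with no background correction and -5.33 with the processed signal. The number of family genes called higher was 1 in place of 0 with the processed signal, 75th percentile scaling, cyclic loess, dim probes left out, the replicate block and without 1G11-SOD3 replicate 3 (*Cib2* in each) and with the surface taken off (*Itga2b*), and 0 to 1 with 1 array left out. Those called lower were 3, or 11 with the processed signal, under which the median difference of all genes was -0.46 (-0.31 with 75th percentile scaling), and 1 to 4 with 1 array left out. The set changed with the surface taken off, to *Capn15*, *Rab27b*, *Sytl3* and *Sytl4*, and lost *Tff1* with no background correction, cyclic loess or dim probes left out. With the mean of each gene's probes they included *Rab27b*. Among neighbors 1 was called higher with the surface taken off (*Prokr1*, well above background on no array). Called lower was 1 with median intensities, the deposited table or dim probes left out (*Rab8a* in each) or the surface taken off, 2 with the replicate block and 6 with the processed signal, and 0 to 2 with 1 array left out. *Rab8a* turned to 0.42 (adjusted p = 0.632) with the mean of its probes. Over all genes, 507 were called higher with no background correction and 506 with the surface taken off, and 372 to 967 with 1 array left out. Called lower were 304 with an offset of 16, 741 with 75th percentile scaling, 1091 with the surface taken off and 6373 with the processed signal, and 227 to 392 with 1 array left out. Among the listed genes and neighbors the block changed the calls of *Cib2*, *Itm2c*, *Rab8a*, *Tpm4*, *Flt1* and *Esam* and no other. *Egfl7* was not called without 1G11-mock replicate 2 or 3 or 1G11-SOD3 replicate 1 or 2 (adjusted p from 0.0565 to 0.0754), nor *Ecscr* without 1G11-mock replicate 2 or 3 or any 1G11-SOD3 array (0.0651 to 0.138), with uncorrected background (0.0872) or averaged probes (0.0615), and *Ecscr* was 4.02 without 1G11-mock replicate 1. The cause of these changes was not tested. Signal over background limits what can be said of the genes not well above it.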
